A study of Sus scrofa with 8 samples.

Results

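Antioxidant enzymes remove superoxide, peroxides and reactive quinones, and 10 of their genes were followed here in the jejunum of suckling and weaned piglets: SOD1, SOD2, CAT, GPX1, GPX2, GPX4, PRDX6, TXN, NQO1 and HMOX1. A gene was taken up when the RefSeq accession of a non-control probe led to its symbol, and the probe with the highest mean signal over all arrays stood for it. This gave 9 of the 10 genes among 3216 symbols on the array; no probe was matched to SOD2, the mitochondrial superoxide dismutase, which was not analysed here. All 9 genes were well above background on every array and passed the filter on dim probes.

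The arrays held RNA from the wall of the middle jejunum, part of the small intestine, of 8 Duroc × Landrace piglets aged 25 days, 4 per group and 1 piglet per array. The suckling piglets, the controls, had stayed with the sow. The weaned piglets had left the sow at 21 days and, until sampling 4 days later, ate freely from a basal diet (digestible energy 14.48 MJ/kg, crude protein 20.50%). Both groups came from the same 4 litters, with 1 piglet per litter in each group, but the labels link no replicate number to a litter. A full-thickness 2 cm segment mixes epithelium, immune cells, vessels and muscle, so fewer cells of a type and less RNA per cell cannot be told apart in these values.

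Superoxide dismutases turn superoxide into hydrogen peroxide, which catalase, the glutathione peroxidases and the peroxiredoxins then reduce. Thioredoxin supplies electrons to many peroxiredoxins, while NQO1 and HMOX1 are textbook targets of the transcription factor NRF2, which KEAP1 holds in check. In the gut these enzymes act against oxidants from food, microbes, mitochondria and inflammatory cells, and GPX2 is the glutathione peroxidase known above all from the intestinal epithelium, with its highest levels towards the crypt base.

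All values below are log2 signals relative to the 75th percentile of their own array, so 0 marks that percentile and a step of 1 is a doubling. The 75th percentile itself was 245 intensity units in suckling replicate 1 and 317 to 395 in the other 7 arrays, and 67.6% to 71.0% of probes per array were well above background. The suckling arrays lay on 1 slide and the weaned arrays on another, each slide with 1 scan, so an effect of the slide and one of weaning cannot be told apart here. Of 12 listed genes of absorptive enterocytes 7 were tested, among them FABP1, FABP2 and APOA4. All 7 were well above background on all 8 arrays. The filter on dim probes had already asked for at least 4 such arrays. The 4 tested smooth muscle genes were also well above background on all 8, so detection alone does not identify the tissue. Suckling replicate 1 stood apart, with a median of -1.29 for these 7 genes after each was centred on its mean, against 0.24 to 1.06 in the other suckling arrays and -0.41 to 0.41 in the weaned arrays. Results are therefore given with and without that array.

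The comparison asks whether transcripts of antioxidant enzymes differ between suckling piglets and piglets a few days after weaning. None of the 9 genes passed the threshold (limma adjusted p under 0.05 over all 30554 tested probes), and 1 of 9, GPX2, had an unadjusted p under 0.05. Across the array 0.177% of tested probes and 0.0711% of the 2813 tested symbols passed, and 11.9% of symbols had an unadjusted p under 0.05, so the members' counts lay near the background. The mean was higher in weaned piglets for 5 genes and lower for 4, where 57.5% of all tested symbols had a higher mean. The median difference, weaned minus suckling, was 0.02 over the 9 genes and 0.06 over all tested symbols. The groups overlapped for all 9 genes; over all tested symbols, 7.54% had groups that did not overlap. When suckling replicate 1 was left out, again none of the 9 genes passed, where 1.82% of tested probes and 1.68% of tested symbols did, and the median difference was -0.15.

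**Figure D1:**
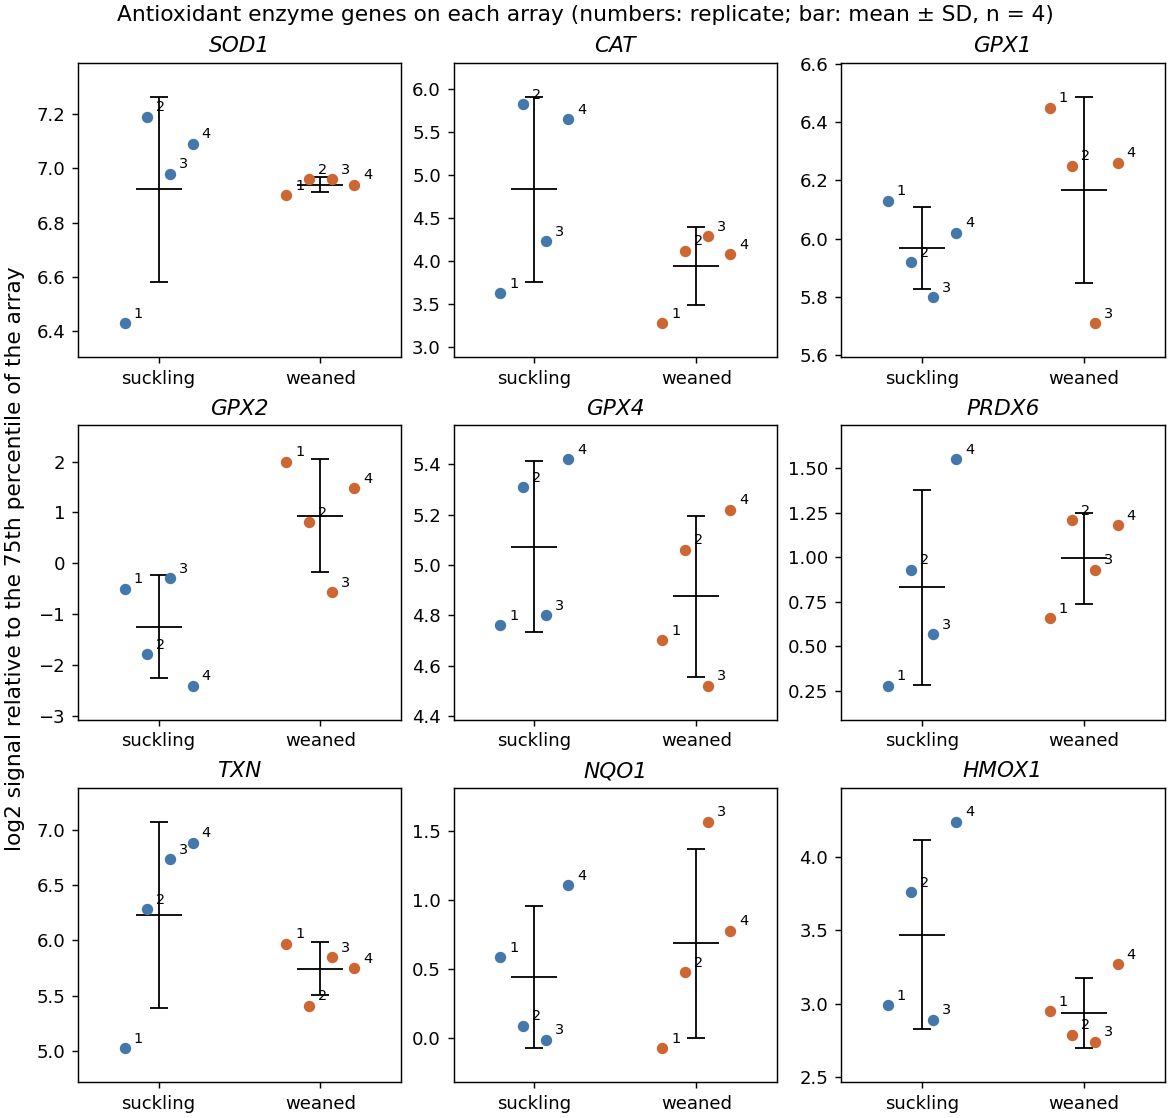
Log2 signal of each antioxidant enzyme gene on the 4 suckling and 4 weaned arrays, relative to the 75th percentile of the array, with the replicate number beside each point and a bar for the mean ± SD; each panel has its own vertical scale. GPX2 runs from -2.41 to -0.30 in suckling and from -0.57 to 2.00 in weaned piglets, while CAT and HMOX1 are high in suckling replicates 2 and 4 alone.

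GPX2 showed the largest difference of the 9 genes. It read -0.50, -1.79, -0.30 and -2.41 in suckling replicates 1 to 4 and 2.00, 0.81, -0.57 and 1.48 in weaned replicates 1 to 4. Weaned replicates 1, 2 and 4 lay above every suckling array, and weaned replicate 3 lay below suckling replicates 1 and 3, so the groups overlapped through that 1 array. The mean was -1.25 ± 1.02 in suckling and 0.93 ± 1.11 in weaned piglets (SD, n = 4 per group), a 4.54-fold higher level, or 2.18 on the log2 scale (SE 0.63, 95% confidence interval 0.77 to 3.60, limma adjusted p = 0.239). With each array left out in turn the difference ran from 1.80, without suckling replicate 4, to 2.68, without weaned replicate 3, and was 2.43 without suckling replicate 1 (limma adjusted p = 0.0941 to 0.53 over the 8 runs). It was 1.28 when the background was corrected again from the spot intensities by normexp, and 1.83 when flagged local backgrounds were first replaced in that run. Both normexp runs added an offset of 50 units, which by itself shrinks log2 differences of dim probes. GPX2 had processed intensities of 64.3 to 321 units in the suckling arrays, and the part of the offset was not tested. A single probe measured GPX2, so no other probe could be set beside it.

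GPX2 followed the genes of dividing crypt cells on most arrays. The 5 tested crypt proliferation genes of the 12 listed, CCNB1, CCNB2, CDK1, TOP2A and MCM3, had a centred median of 0.56, -0.89, -0.08 and -0.75 in suckling replicates 1 to 4 and 0.52, 0.43, -0.16 and 0.68 in weaned replicates 1 to 4. Suckling replicates 2 and 4 were thus lowest in both, and weaned replicates 1, 2 and 4 were high in both. Suckling replicate 1 was the exception, high for the crypt genes and below the mean for GPX2. None of these 5 genes passed the threshold (median difference 0.61, smallest limma adjusted p = 0.449), and their part in the GPX2 values was not tested. The likeness was not particular to the crypt genes. The centred median of the 8 tested macrophage and neutrophil genes was also lowest of the suckling arrays in replicates 2 and 4 (-0.53 and -0.2). It was high in weaned replicates 1 and 2 (1.02 and 0.42) and low in weaned replicate 3 (-0.37), but not high in weaned replicate 4 (-0.14).

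GPX1, the widespread cytosolic glutathione peroxidase, read 6.13, 5.92, 5.80 and 6.02 in suckling replicates 1 to 4 and 6.45, 6.25, 5.71 and 6.26 in weaned replicates 1 to 4, so 3 weaned arrays lay above all suckling arrays and weaned replicate 3 lay below them. The difference was 0.20 (SE 0.19, 95% confidence interval -0.22 to 0.62, limma adjusted p = 0.702), and 0.11 to 0.35 with 1 array left out. Weaned replicate 3 was thus the lowest of the weaned arrays for both GPX1 and GPX2. This was not particular to them: it was also lowest on the brightest probes of GPX4 (4.52) and HMOX1 (2.74). All 6 GPX1 probes had a higher mean in weaned piglets, by 0.05 to 0.24.

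GPX4, which reduces lipid hydroperoxides inside membranes, read 4.76, 5.31, 4.80 and 5.42 in suckling and 4.70, 5.06, 4.52 and 5.22 in weaned replicates 1 to 4. Replicates 2 and 4 were the higher ones in both groups, and the groups overlapped over most of their range. The difference was -0.20 (SE 0.22, 95% confidence interval -0.71 to 0.31, limma adjusted p = 0.763), and -0.31 to -0.08 with 1 array left out. Its 3 probes ran from -0.20 to 0.11. The 3 glutathione peroxidases thus had a higher mean in weaned piglets for GPX1 and GPX2 and a lower one for GPX4, with none past the threshold.

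CAT, the peroxisomal catalase, had the largest difference in the other direction. It read 3.63, 5.82, 4.23 and 5.65 in suckling replicates 1 to 4 and 3.28, 4.12, 4.29 and 4.08 in weaned replicates 1 to 4. Suckling replicates 2 and 4 stood above every weaned array, whereas suckling replicates 1 and 3 lay within the weaned range. The mean was 4.83 ± 1.07 in suckling and 3.94 ± 0.45 in weaned piglets (SD, n = 4 per group), a difference of -0.89 or 1.85-fold lower (SE 0.49, 95% confidence interval -1.99 to 0.22, limma adjusted p = 0.502). With suckling replicate 1 left out it was -1.29 (SE 0.41, 95% confidence interval -2.23 to -0.35, limma adjusted p = 0.123), and without suckling replicate 2 it was -0.56, the ends of the range over the 8 arrays.

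The differences of the 9 CAT probes ran from -0.92 to -0.63, all lower in weaned piglets, and on all 9 probes suckling replicates 2 and 4 lay above every weaned array. Suckling replicate 3 did so on 4 of the 9 probes, and suckling replicate 1 lay below every weaned array on 5 of the 9. These probes read 1 transcript in the same 8 animals and are not further replicates.

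PRDX6, a peroxiredoxin that also reduces oxidised phospholipids, read 0.28, 0.93, 0.57 and 1.55 in suckling and 0.66, 1.21, 0.93 and 1.18 in weaned replicates 1 to 4. The lowest and the highest value both fell in the suckling group, in replicates 1 and 4. The difference was 0.16 (SE 0.27, 95% confidence interval -0.46 to 0.78, limma adjusted p = 0.847) and changed sign to -0.02 without suckling replicate 1. Of its 6 probes, 5 had a higher and 1 a lower mean in weaned piglets.

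**Figure D2:**
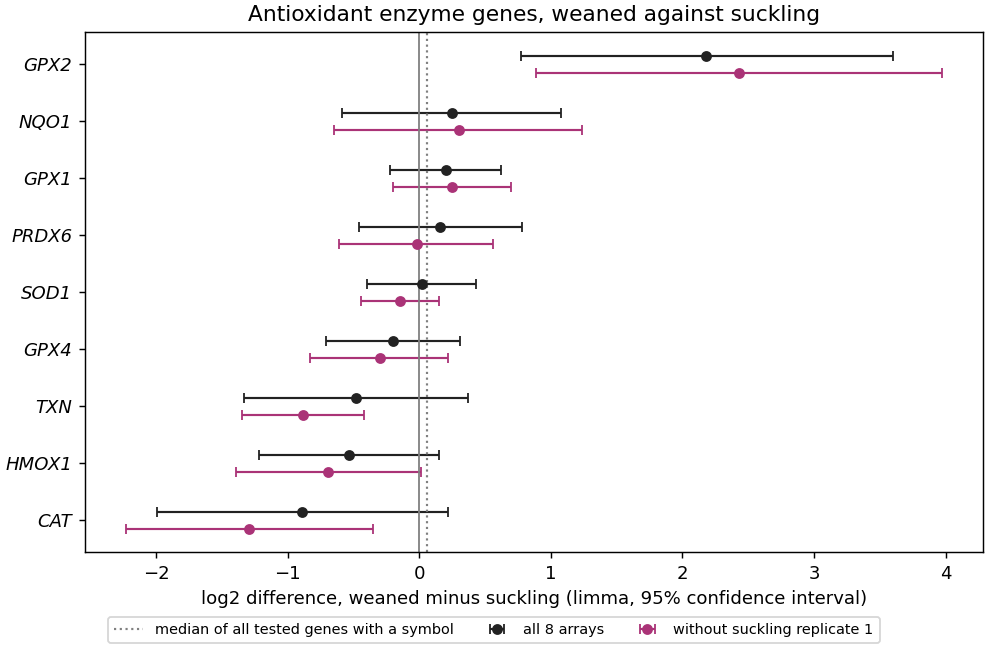
Log2 difference, weaned minus suckling, of the 9 antioxidant enzyme genes with its 95% confidence interval from limma, over all 8 arrays (black) and without suckling replicate 1 (purple); the dotted line is the median of all tested symbols, 0.06. The GPX2 interval, 0.77 to 3.60, lies above 0, and without suckling replicate 1 the CAT and TXN intervals lie below 0, but none of the 9 genes passed after adjustment.

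SOD1, the cytosolic copper and zinc superoxide dismutase, had almost equal means in both groups. It read 6.43, 7.19, 6.98 and 7.09 in suckling replicates 1 to 4, against 6.90, 6.96, 6.96 and 6.94 in weaned replicates 1 to 4. The weaned arrays lay within 0.06 of each other, while suckling replicate 1 lay below and the other 3 suckling arrays lay above all of them. The difference was 0.02 (SE 0.18, 95% confidence interval -0.40 to 0.43, limma adjusted p = 0.977). The groups no longer overlapped without suckling replicate 1, but the difference was small, -0.15 (SE 0.13, 95% confidence interval -0.44 to 0.15, limma adjusted p = 0.541). The sign of the SOD1 difference also turned under other ways of scaling the arrays, where it was between -0.04 and -0.02.

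TXN, thioredoxin, a small protein that keeps cysteines reduced, read 5.03, 6.28, 6.73 and 6.88 in suckling and 5.97, 5.41, 5.85 and 5.75 in weaned replicates 1 to 4. As with SOD1, suckling replicate 1 was the lowest of all 8 arrays and the other 3 suckling arrays were the highest. The mean was 6.23 ± 0.84 in suckling and 5.75 ± 0.24 in weaned piglets (SD, n = 4 per group), a difference of -0.48 (SE 0.38, 95% confidence interval -1.33 to 0.37, limma adjusted p = 0.639). Without suckling replicate 1 it was -0.88, or 1.84-fold lower, and the groups did not overlap (SE 0.20, 95% confidence interval -1.35 to -0.42, limma adjusted p = 0.0656). Without suckling replicate 4 it was -0.27, the other end of the range over the 8 arrays. The second TXN probe had a difference of -0.64 over all 8 arrays. On that probe weaned replicate 2 was the lowest array, at 4.48 against 4.69 in suckling replicate 1. SOD1 and TXN were the 2 of 9 genes whose groups did not overlap once suckling replicate 1 was left out, both with the weaned arrays below. Among all tested symbols 21.5% had groups that did not overlap in that comparison, and 8.56% had the weaned arrays below.

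HMOX1, heme oxygenase 1, which breaks down heme and is induced by many stresses, read 2.99, 3.76, 2.89 and 4.24 in suckling and 2.95, 2.79, 2.74 and 3.27 in weaned replicates 1 to 4. Suckling replicates 2 and 4 stood above every weaned array on all 3 HMOX1 probes, as they did for CAT, and on the brightest probe suckling replicates 1 and 3 lay within the weaned range. The mean was 3.47 ± 0.64 in suckling and 2.94 ± 0.24 in weaned piglets (SD, n = 4 per group), a difference of -0.53 or 1.45-fold lower (SE 0.30, 95% confidence interval -1.22 to 0.15, limma adjusted p = 0.518). Its 3 probes ran from -0.62 to -0.53, and without suckling replicate 1 the difference was -0.69 (limma adjusted p = 0.229). Over the 8 arrays left out in turn it ran from -0.73 to -0.28, the latter without suckling replicate 4.

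NQO1, a quinone reductase, read 0.59, 0.09, -0.01 and 1.11 in suckling and -0.07, 0.48, 1.57 and 0.78 in weaned replicates 1 to 4. Its lowest and highest values, in weaned replicates 1 and 3, were both in the weaned group, on each of its 3 probes. The difference was 0.25 (SE 0.37, 95% confidence interval -0.59 to 1.08, limma adjusted p = 0.822) and was -0.05 without weaned replicate 3. NQO1 and HMOX1, named above as NRF2 targets, therefore differed in the sign of their mean difference, and neither passed. The other genes were not sorted by whether NRF2 targets them, so this pair is no full readout of NRF2.

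**Figure D3:**
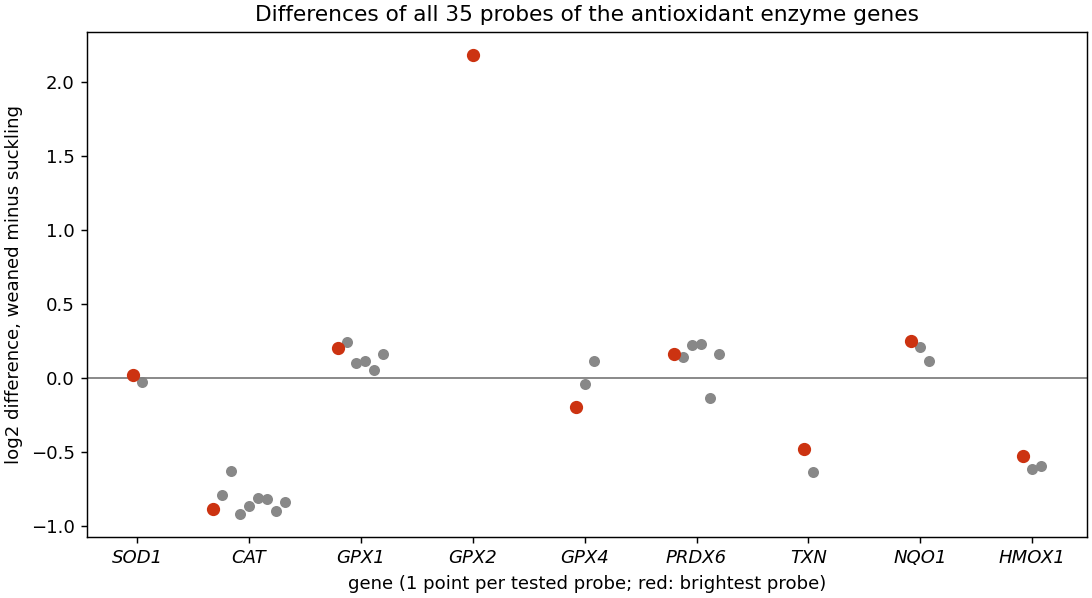
Log2 difference, weaned minus suckling, of each of the 35 tested probes of the 9 genes, 1 point per probe, ordered within a gene from the brightest (red) to the dimmest. The 9 CAT, 3 HMOX1 and 2 TXN probes all lie below 0, the 6 GPX1 and 3 NQO1 probes all lie above 0, and none of the 35 passed the threshold.

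Arrays of one group differed more in some of these enzymes than in others. With 1 array per piglet, differences between animals and measurement noise cannot be told apart in this spread. The within-group SD was 1.07 for GPX2, 0.82 for CAT, 0.62 for TXN and 0.61 for NQO1, against 0.32 for the median tested symbol, and it was 0.24 for SOD1 and 0.25 for GPX1. The SD was larger in the suckling than in the weaned group for 6 of the 9 genes, SOD1, CAT, GPX4, PRDX6, TXN and HMOX1, and for 68.4% of all tested symbols. Without suckling replicate 1 it was again larger in suckling piglets for 6 of 9 genes, where the share over all tested symbols was 48.9%. On the brightest probes suckling replicate 1 was the lowest suckling array for 5 of the 9 genes: SOD1, CAT, GPX4, PRDX6 and TXN. The share over all tested symbols was not computed. For GPX4 it was close, 4.76 against 4.80 in suckling replicate 3. On both other GPX4 probes suckling replicate 3 was lower (3.22 against 3.51 and 2.76 against 2.87). It was also lower on the PRDX6 probes ranked 3, 5 and 6 by brightness (0.28 against 0.32, 0.1 against 0.36 and -0.23 against 0.43). On the dimmest of these suckling replicate 2 was lower too, at 0.03. Suckling replicate 1 was the lowest suckling array on the remaining PRDX6 probes and on every SOD1, CAT and TXN probe. Suckling replicate 1 also had the low absorptive enterocyte median given above. The part of cell composition in the values of these 5 genes was not tested.

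**Figure D4:**
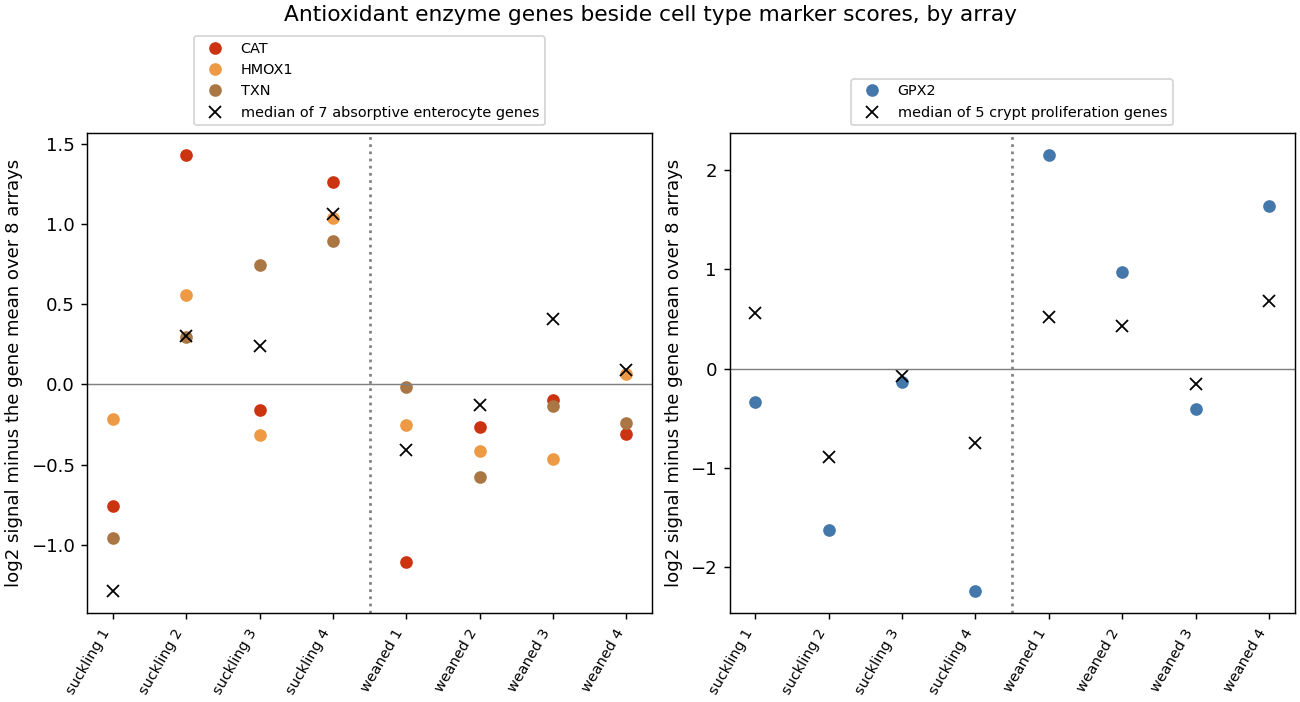
Log2 signal on each array minus the gene's mean over the 8 arrays for CAT, HMOX1 and TXN beside the median of 7 absorptive enterocyte genes (left), and for GPX2 beside the median of 5 crypt proliferation genes (right). Suckling replicate 1 is low for the enterocyte median (-1.29), CAT and TXN, though CAT is lowest in weaned replicate 1. HMOX1 is lower in suckling replicate 3 and in weaned replicates 1, 2 and 3 than in suckling replicate 1. Suckling replicates 2 and 4 are lowest for both the crypt median (-0.89 and -0.75) and GPX2.

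Of 42 other listed genes of antioxidant defence, 20 were tested, and none passed the threshold; 8 had a higher and 12 a lower mean in weaned piglets, with a median difference of -0.03. At an unadjusted p under 0.05 there were 2 of 20, TXNIP and GSS, near the 11.9% of all tested symbols. TXNIP, the protein that binds and inhibits thioredoxin, read 7.06, 7.13, 7.01 and 6.65 in suckling and 6.58, 6.44, 5.85 and 6.10 in weaned replicates 1 to 4. Every weaned array was below every suckling array, with a difference of -0.72 (SE 0.20, 95% confidence interval -1.17 to -0.27, limma adjusted p = 0.229), and all 7 of its tested probes pointed the same way. In 1.88% of tested symbols the weaned arrays were all below the suckling arrays.

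GSS, glutathione synthetase, was 0.93 ± 0.14 in suckling and 1.30 ± 0.20 in weaned piglets (SD, n = 4 per group; difference 0.37, limma adjusted p = 0.379). KEAP1 was 1.79 ± 0.16 and 2.05 ± 0.04, with all weaned arrays above all suckling arrays (difference 0.27, limma adjusted p = 0.471), as in 5.65% of tested symbols. FTH1, the ferritin heavy chain that stores iron, was 9.63 ± 0.10 and 9.38 ± 0.11, with all weaned arrays below all suckling arrays (difference -0.25, limma adjusted p = 0.492). That FTH1 difference depended on the processing. It was -0.01 with quantile normalisation, -0.03 in the deposited table and -0.29 with median scaling. Under normexp it was 0.12, and -0.13 when flagged local backgrounds were first replaced. All 10 tested FTH1 probes had a lower mean in weaned piglets. TKT and TALDO1, enzymes of the pentose phosphate pathway, which supplies the NADPH that glutathione and thioredoxin reductases use, had differences of 0.35 and 0.43 (limma adjusted p = 0.444 and 0.484). Leaving out suckling replicate 1 gave 0.47 for TKT and 0.60 for TALDO1 (limma adjusted p = 0.117 and 0.142). TXNIP, KEAP1 and FTH1 were the 3 of 20 genes whose groups did not overlap, where 7.54% of all tested symbols had such groups. The KEAP1 groups came close, at 1.96 in suckling replicate 2 and 2.01 in weaned replicate 3. So did the FTH1 groups, at 9.5 in suckling replicate 3 and 9.48 in weaned replicate 3.

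Enzymes that make oxidants were tested for 10 of 19 listed genes, and none passed; 8 had a higher and 2 a lower mean in weaned piglets, with a median difference of 0.39 against 0.06 over all tested symbols. NOS2, the inducible nitric oxide synthase, read -0.43, -0.59, 1.71 and -0.36 in suckling and 3.34, 1.91, 2.24 and 3.37 in weaned replicates 1 to 4. Its weaned arrays all lay above the suckling arrays, and suckling replicate 3 came close to them (difference 2.63, SE 0.55, limma adjusted p = 0.139). With each array left out in turn the NOS2 difference ran from 2.41 to 3.17 (limma adjusted p = 0.039 to 0.4). It was under 0.05 in 1 of the 8 runs, the one without suckling replicate 3, its own highest suckling array.

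DUOX2, an epithelial oxidase that releases hydrogen peroxide into the lumen, and its maturation factor DUOXA2 were high in the same weaned animals. DUOX2 read 0.88 and 0.96 in weaned replicates 1 and 4, against -2.12 and -1.37 in weaned replicates 2 and 3 and -2.01 to -0.53 in the suckling arrays. DUOXA2 read 0.63 and 0.84 in weaned replicates 1 and 4, -2.38 and -1.43 in weaned replicates 2 and 3, and -2.62 to -1.93 in the suckling arrays. GPX2 was also highest in weaned replicates 1 and 4, but weaned replicate 2, low for both oxidase genes, lay above all suckling arrays for GPX2. The differences of DUOX2 and DUOXA2 were 1.01 and 1.61 (SE 0.70 and 0.67, limma adjusted p = 0.593 and 0.377).

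NCF1, a subunit of the phagocyte NADPH oxidase, had a difference of 0.48 (limma adjusted p = 0.417). Its groups did not overlap, as in the 5.65% of symbols given above, but the suckling arrays reached -2.89 and the lowest weaned array was -2.88. PTGS2, the inducible cyclooxygenase, had a difference of 0.61 (limma adjusted p = 0.499), and MAOB, a monoamine oxidase of mitochondria, one of 0.29 (limma adjusted p = 0.769). The MAOB difference was 0.00 without suckling replicate 1 (95% confidence interval -0.62 to 0.62). Of 12 listed macrophage and neutrophil genes 8 were tested, 7 of them with a higher mean in weaned piglets, and none passed. Their centred median was 1.02 and 0.42 in weaned replicates 1 and 2, -0.37 and -0.14 in weaned replicates 3 and 4, and -0.53 to -0.09 in the suckling arrays. NCF1 was likewise higher in weaned replicates 1 and 2 than in the other weaned arrays, at -2.28 and -2.02 against -2.88 and -2.87 in weaned replicates 3 and 4; the part of phagocyte number in it was not tested.

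**Figure D5:**
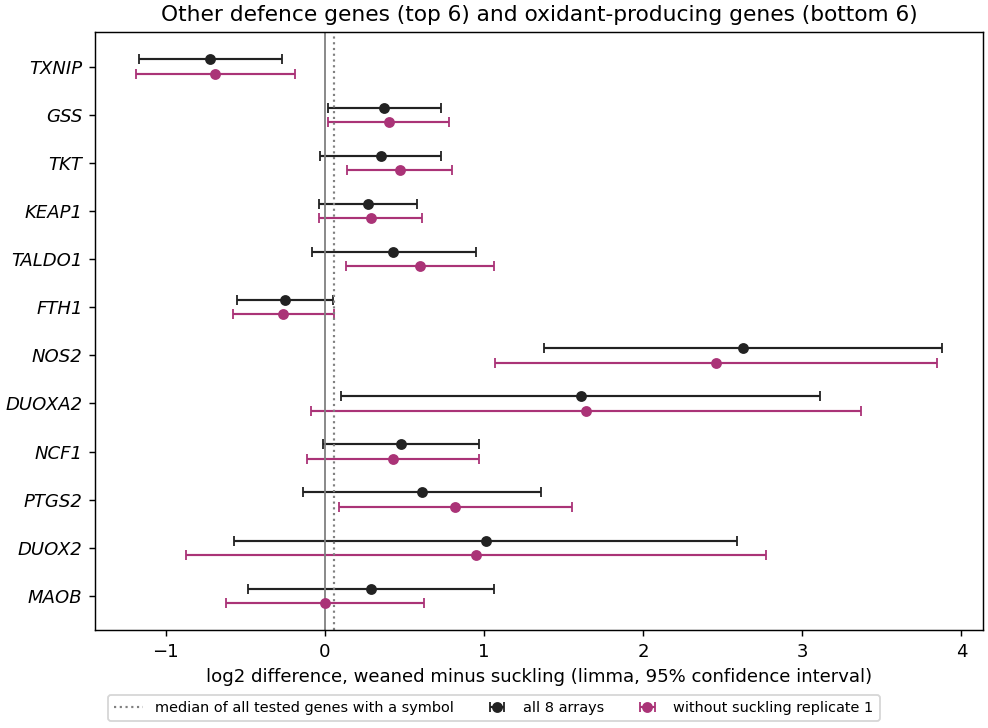
Log2 difference, weaned minus suckling, with its 95% confidence interval from limma for the 6 genes with the smallest p from each of 2 lists, other antioxidant defence (top) and oxidant-producing enzymes (bottom), over all 8 arrays (black) and without suckling replicate 1 (purple). Over all 8 arrays the 6 oxidant-producing genes lie above 0, from 0.29 for MAOB to 2.63 for NOS2, whereas TXNIP and FTH1 lie below 0. Without suckling replicate 1 MAOB lies at 0.00.

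For each enzyme the gene with the most similar profile was found among 2772 other symbols, by the root mean square difference of the centred log2 values over the 8 arrays. The profile nearest to GPX2 was that of CD274, the immune checkpoint ligand PD-L1, at 0.44, where the GPX2 profile itself had a root mean square of 1.43. CAT was nearest to FRRS1, a ferric reductase, at 0.21 for a profile of 0.84, and HMOX1 to TMEM41B, a membrane protein of the endoplasmic reticulum, at 0.13 for a profile of 0.50. TXN was nearest to DAB1 at 0.21 for a profile of 0.59, and NQO1 to GZMK, a granzyme of lymphocytes, at 0.26 for a profile of 0.54. SOD1, GPX1, GPX4 and PRDX6 had profiles of 0.21 to 0.38 and were nearest to SLA-DMA, TGFBR1, PRELID3B and SDHD. With 8 arrays and 2772 candidates, a close match is a description of these arrays.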

How the data were processed

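Jejunal total RNA (integrity number 7.0 or more) was amplified and labelled with Cy3 for 1-colour arrays, per the labels' protocols. Per the file headers, the deposited scanner files hold, for each spot, a processed intensity with background already subtracted by Agilent Feature Extraction, version 10.7 per the submitters' processing notes, besides median spot and local background intensities. The deposited table of log2 values ranks the probes of each array as the processed intensity does and has a median of 5.50 in every column; its scaling is not given in the sources used here, and it served as an alternative.

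Control spots were left out, outlier spots were set to missing, spots of a probe were averaged, and each array's log2 75th percentile was subtracted. Of 43603 probes, 6924 got a symbol by matching RefSeq accessions to a gene table of Sscrofa11.1, used for names alone. Probes well above background on at least 4 arrays, with at least 3 values per group, entered the fit by limma 3.58.1 under R 4.3.3 (group as the sole term, two-sided, Benjamini-Hochberg adjusted over all tested probes, threshold 0.05), a procedure tested on simulated data. The number of arrays limits the precision. Each array is a separate piglet.

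The brightest tested probe stood for each gene. Besides the antioxidant enzymes, the text names, from the lists of other defence genes and of oxidant-producing enzymes, every gene past the threshold and the 6 genes with the smallest p, and for each enzyme the gene of nearest profile without a LOC number. Members and lists were chosen with earlier results of these data known. Of the cell type lists not described in the text, goblet and secretory genes had 2 of 4 tested genes with a higher mean in weaned piglets, T and B lymphocytes 7 of 9, smooth muscle 3 of 4, fibroblasts 0 of 3 and endothelium 0 of 4; none passed, and no erythrocyte gene was tested. From the list of oxidant-producing enzymes 1 gene is not reported here and was left out of its counts. The alternatives were other scaling, background, probe filters, outlier spots kept, eBayes with a trend, array weights, a block for the replicate number, the deposited table, other probes of a gene and each array left out.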

Additional observations from a re-analysis of the deposited data

Results flagged for a closer look

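In 42 groups of 4 arrays, formed by the 9 antioxidant enzyme genes and the 12 named genes of the other lists, 2 held an array far from its group; by chance about 2.1 would. Distance is measured as the array's gap to its nearest neighbour over the range of the group. Weaned replicate 3 was lowest for GSS (0.845), at 1.01 against 1.36 to 1.43 in the other weaned arrays. Suckling replicate 3 was highest for NOS2 (0.898), at 1.71 against -0.59 to -0.36 in the other suckling arrays. None of the 9 antioxidant enzyme genes had such an array in either group.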

How the results depend on the processing

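Under 21 alternatives the count of antioxidant enzyme genes past the threshold stayed at 0 (limma), and their median difference lay between -0.15 and 0.25. The signs of CAT, GPX1, GPX2, GPX4, TXN and HMOX1 did not turn, but their sizes ran from -1.29 to -0.55, 0.11 to 0.44, 1.28 to 2.68, -0.31 to -0.02, -0.88 to -0.27 and -0.73 to -0.20. The SOD1 difference of 0.02 was -0.08 with array weights, -0.04 with the deposited table and with quantile normalisation, -0.02 with median scaling, -0.03 with the second-brightest probe, -0.005 with the mean of its probes and -0.0037 with normexp after flagged local backgrounds were replaced by the array median, an alternative added after seeing the data. With 1 array left out, SOD1 ranged from -0.15 to 0.11, PRDX6 from -0.02 to 0.40 and NQO1 from -0.05 to 0.50. Under the planned normexp run, which moved the median of all tested probes from 0.04 to -0.10, FTH1 was 0.12, NCF1 -0.06 and PTGS2 -0.05. That run used flagged local backgrounds as given, up to 65246 units in suckling replicate 4. The 54 probes past the threshold became 0 with it (251 at an unadjusted p under 0.05 by limma), 324 with array weights, and 9 to 553 with 1 array left out: 553 when suckling replicate 1 was dropped, 40 for suckling replicate 4, and 9 to 25 for each of the other 6 arrays; the cause was not tested. Same-numbered arrays deviated together for numbers 1 and 3 (correlations 0.368 and 0.186) but not for 2 and 4 (0.008 and -0.018), and neither these values nor the labels say whether the numbers pair the animals. With the replicate block 0 probes passed (4194 at an unadjusted p under 0.05 by limma), and limma adjusted p was 0.281 for GPX2 and 0.344 for CAT; in this balanced design the block leaves the differences themselves as they are by construction. GPX2 has no second probe, so that alternative was not run for it. All 9 members were well above background on every array. The GPX2 difference was 1.83 and 1.28 under the 2 normexp runs, both with an offset of 50 units.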

Other observations

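The genes in this paragraph were grouped after their values were seen. Of 8 selenoprotein genes in the lists above, whose proteins carry selenocysteine, 4 had a higher and 4 a lower mean in weaned piglets, and none passed the threshold. GPX1, GPX2, TXNRD1 and TXNRD2 were the higher ones and GPX3, GPX4, SELENOP and MSRB1 the lower ones. SELENOP, the selenium carrier of plasma, read 5.18, 7.20, 6.90 and 7.27 in suckling and 5.51, 5.80, 6.61 and 5.53 in weaned replicates 1 to 4. Suckling replicate 1 was its lowest array and the other 3 suckling arrays its highest (difference -0.78, SE 0.47, limma adjusted p = 0.541). The brightest probes of TXN and SOD1 had the same order. The 4 tested peroxiredoxins, PRDX2, PRDX3, PRDX5 and PRDX6, had differences between -0.07 and 0.16, with 95% confidence intervals that together ran from -0.61 to 0.78 (limma adjusted p = 0.847 to 0.988).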
